A study of Mus musculus with 12 samples.

Results

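The genes described here copy DNA and prepare cells for S phase. They were taken by symbol from a list of 34, and 33 of the 34 were found among the 21187 genes measured. Pcna, the sliding clamp of the replication fork, was not analysed here. The samples were C2C12 myotubes, multinucleated cells that form when this mouse myoblast line fuses, used on day 3 of differentiation. They were treated with mouse LIF (leukemia inhibitory factor, which is related to interleukin-6) at 10 ng/ml or with conditioned medium of C26, a colon carcinoma line of the mouse that is used to model cancer wasting. The conditioned medium (C26CM) made up 1 part in 3 of the differentiation medium. Each agent was set against its own untreated cultures, in the same differentiation state, at 4, 8 and 24 h. Each of the 12 arrays held the pooled RNA of 3 wells, so each agent, arm and time has 1 array and no difference at a single time has a replicate check. All cultures come from 1 cell line, and the labels describe the controls only as untreated, without medium of other cells.

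DNA replication starts when the Mcm2 to Mcm7 helicase is loaded at origins by Cdc6 and Cdt1, which is called licensing. Cdc45 and the GINS complex then activate the helicase, the polymerases copy both strands, and ribonucleotide reductase, thymidylate synthase and thymidine kinase supply the nucleotides. E2F transcription factors and cyclin E drive many of these genes at the entry into S phase. Myotubes have left the cell cycle, while unfused cells in a differentiating culture can still divide. In pooled RNA, fewer cells that express a gene and less RNA per cell cannot be told apart.

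Promoters are shown because E2F factors are known to control many replication genes. RefSeq promoters (assembly GRCm38.p6, windows of 300 bases, from 250 before to 50 after the start) were listed for 28 of the 33 genes. An E2F-like motif, TTTCCCGC, TTTCGCGC, TTTGCCGC or TTTGGCGC on either strand, was found in 12 of these 28 genes, and 8 of them also held CCAAT, the motif of the factor NF-Y, in the same window. Among the promoters, 12 of 34 of these genes (35.3%) held the E2F-like motif, against 744 of all 32851 (2.27%). CCAAT was in 19 of the 34 (55.9%), against 37.4% of all promoters. The 12 genes were Rfc3, Mcm5, E2f2, Uhrf1, Mcm7, Cdc6, Lig1, Pola1, Cdt1, Mcm3, Mcm6 and Pold1. A match describes letters only and does not show that a factor binds there.

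The sequences before the start of 4 of these genes are given with the E2F-like motif in capitals, on the strand of the gene and written 5′ to 3′. They lie at chr5:151651209-151651458 on the minus strand (Rfc3), chr8:75109259-75109508 on the plus strand (Mcm5), chr17:56304063-56304312 on the plus strand (Uhrf1) and chr1:128359706-128359955 on the minus strand (Mcm6). In Mcm5 and in the first run of Mcm6, matches on opposite strands overlap, so the capitals span both.
Rfc3: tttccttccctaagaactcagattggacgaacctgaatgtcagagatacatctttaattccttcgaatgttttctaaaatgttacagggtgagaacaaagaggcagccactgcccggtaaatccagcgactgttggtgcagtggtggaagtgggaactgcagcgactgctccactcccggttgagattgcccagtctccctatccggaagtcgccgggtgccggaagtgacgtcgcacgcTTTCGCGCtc
Mcm5: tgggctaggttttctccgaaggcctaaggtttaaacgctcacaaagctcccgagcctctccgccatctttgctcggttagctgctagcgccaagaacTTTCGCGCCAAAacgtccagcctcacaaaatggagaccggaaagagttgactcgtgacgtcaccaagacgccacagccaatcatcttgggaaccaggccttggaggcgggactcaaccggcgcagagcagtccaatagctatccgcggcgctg
Uhrf1: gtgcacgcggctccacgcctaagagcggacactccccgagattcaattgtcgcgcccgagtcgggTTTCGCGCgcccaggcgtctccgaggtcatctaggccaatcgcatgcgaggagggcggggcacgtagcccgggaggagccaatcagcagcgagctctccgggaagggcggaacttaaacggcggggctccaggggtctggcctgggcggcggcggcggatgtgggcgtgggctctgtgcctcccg
Mcm6: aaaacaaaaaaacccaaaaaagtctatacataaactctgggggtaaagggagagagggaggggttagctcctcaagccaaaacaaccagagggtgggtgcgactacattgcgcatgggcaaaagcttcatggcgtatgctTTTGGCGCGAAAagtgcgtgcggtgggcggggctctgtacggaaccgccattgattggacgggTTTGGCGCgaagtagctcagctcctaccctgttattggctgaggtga

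In 4 further genes the matches lie after the start, and runs of 30 bases around them are shown. They lie at chr4:136172294-136172323 on the plus strand (E2f2), chr7:44548766-44548795 on the minus strand (Pold1), chr7:13278841-13278870 on the plus strand (Lig1) and chr1:20820266-20820295 on the minus strand (Mcm3). Lig1 and Mcm3 were added after their values were seen, because both passed the test at 24 h described further on. The set holds genes that were lower at 24 h with both agents (Mcm5, Uhrf1, Mcm6, Lig1, Mcm3 and Pold1) and also E2f2 and Rfc3, which were not, so this motif was found in genes of either kind.
E2f2: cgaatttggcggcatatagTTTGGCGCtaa
Pold1: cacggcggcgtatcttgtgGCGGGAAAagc
Lig1: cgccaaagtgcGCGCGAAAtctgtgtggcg
Mcm3: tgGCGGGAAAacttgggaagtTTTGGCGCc

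The arrays gave log2 levels whose median over all genes was 6.0 at 4 and 8 h and 5.5 at 24 h in the LIF experiment, and 6.71 to 6.74 and 6.14 in the C26CM experiment. Levels at 24 h are therefore not on the scale of the earlier arrays, and a change is the treated minus the untreated log2 level of the same agent and time. LIF values carry 1 decimal, so LIF changes move in steps of 0.1. A level counts as background when it does not exceed the 95th percentile of 1288 smell and pheromone receptor genes. Most of these were taken to be unexpressed in muscle. Between 61.8% and 69.7% of genes were above it per array. All 33 replication genes were above it on every array except Gins1 in the untreated LIF culture at 24 h.

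At 24 h the replication genes were lower in treated cultures with both agents. Of the 33 genes, 28 were below 0 with LIF and 32 with C26CM, where 42.9% and 48.6% of all genes were below 0. The median change was -0.30 with LIF (from -0.6 to 0.2) and -0.35 with C26CM (from -0.71 to 0.21), and the median of all genes was 0.0 with each. The sizes were modest. Only Lig1 was at least 1.5-fold lower with LIF, where 0.486% of all genes were, and only Pole and Tyms with C26CM, where 1.29% were. Lower levels with both agents were seen for 28 of the 33 genes, against 20.2% of all genes. Pearson's r between the 24 h changes with LIF and with C26CM was 0.34 across the 33 genes (Spearman's rho 0.30) and 0.14 across all genes (0.02), as a description, since genes of 1 array share its normalization.

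**Figure D1:**
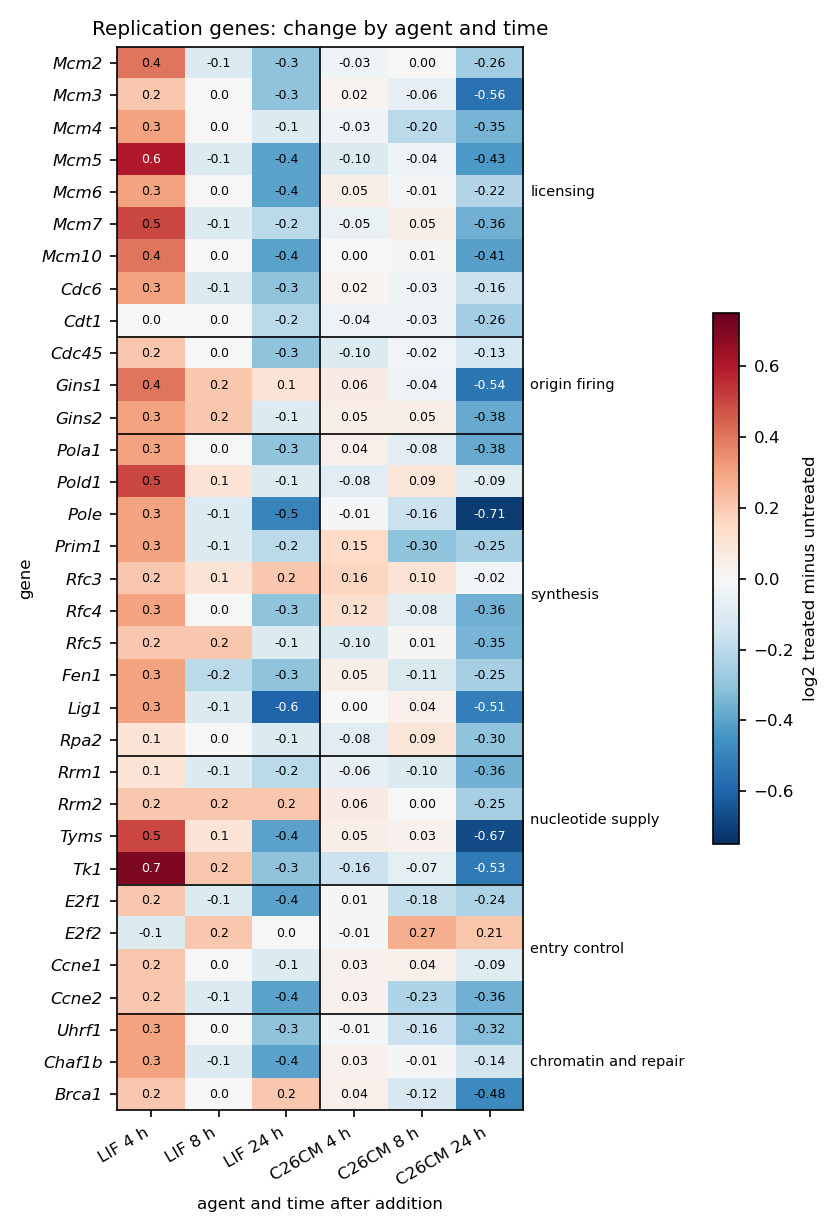
Log2 change, treated minus untreated, of 33 replication genes (rows, by role) for each agent and time (columns), with values printed in the cells, red above 0 and blue below 0. The 24 h columns are blue for 28 genes with LIF and for 32 with C26CM, and the LIF 4 h column is red for 31.

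To ask which genes moved alike with both agents, limma was fitted over all genes with the treated and untreated arrays of a pair as a block and 1 effect per time, so that LIF and C26CM serve as repeats. This test was added after the data were seen. The agents are not replicates, and its p sets their mean change at a time against how unlike their changes were over all 3 times. A gene whose changes differed at 4 h can thus miss the 24 h call. Mcm5 was lower at 24 h by 0.4 with LIF and 0.43 with C26CM but differed at 4 h (0.6 and -0.1). It did not pass (adjusted p = 0.201). At 24 h, 6 of the 33 genes fell and none rose, where 171 of all genes (0.807%) fell. They were Pole, Lig1, Mcm3, Tyms, Rfc4 and Rrm1. At an unadjusted p under 0.05, 26 of 33 were lower, against 6.81% of all genes. The calls depend on the variance model: 0 of the 33 passed in limma without a variance trend, where 27 of all genes did, and 0 with C26CM values rounded to 1 decimal like those of LIF. Without the 4 h or without the 8 h arrays, 2 passed, Lig1 and Pole both times. None of the 33 passed at 4 h, where no gene of the table was called (0.0%), or at 8 h, where 14 genes were (0.0661%).

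The leading strand polymerase gene Pole had log2 levels of 7.7, 8.1 and 5.5 in LIF-treated cultures at 4, 8 and 24 h, against 7.4, 8.2 and 6.0 in untreated ones. Its levels were 8.21, 8.06 and 7.02 in C26CM-treated cultures and 8.22, 8.22 and 7.73 in untreated ones. The treated arrays were thus lower at 24 h by 0.5 with LIF and by 0.71 with C26CM, and Pole fell by 0.605 ± 0.093 (SE) on the log2 scale at 24 h over both agents (limma, adjusted p = 0.0142). Lig1, the ligase that seals Okazaki fragments, stood at 7.6, 7.8 and 5.7 in LIF-treated cultures, against 7.3, 7.9 and 6.3 in untreated ones. With C26CM it stood at 8.55, 8.66 and 7.58 in treated cultures and at 8.55, 8.62 and 8.09 in untreated ones. At 4 and 8 h the C26CM arrays of Lig1 differed by at most 0.04, and at 24 h it fell by 0.555 ± 0.088 over both agents (adjusted p = 0.0158).

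Rfc4, a subunit of the clamp loader, was at 6.6 in LIF-treated and 6.9 in untreated cultures at 24 h, and at 8.43 in C26CM-treated and 8.79 in untreated cultures. The difference was of like size with both agents, and Rfc4 fell by 0.33 ± 0.066 (adjusted p = 0.0453). Its clamp loader partner Rfc5 was lower by 0.1 and 0.35 with LIF and C26CM, and did not pass (adjusted p = 0.347). Rfc3, another partner, was higher by 0.2 with LIF and lower by 0.02 with C26CM. The remaining genes of DNA synthesis did not pass. The lagging strand polymerase genes were lower at 24 h by 0.3 with LIF and 0.38 with C26CM for Pola1 and by 0.1 and 0.09 for Pold1. The primase gene Prim1 was lower by 0.2 and 0.25, the flap nuclease gene Fen1 by 0.3 and 0.25, and Rpa2, which coats single-stranded DNA, by 0.1 and 0.3. Of the 10 synthesis genes, 9 were below 0 at 24 h with LIF and 10 with C26CM.

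All 9 genes grouped here under licensing (Mcm2 to Mcm7, Cdc6, Cdt1 and also Mcm10) were lower at 24 h with both agents. Their medians were -0.30 with LIF and -0.35 with C26CM. Mcm3, a subunit of the helicase, stood at 8.3, 8.8 and 6.4 in LIF-treated cultures at 4, 8 and 24 h, against 8.1, 8.8 and 6.7 in untreated ones. It stood at 8.54, 8.54 and 7.06 in C26CM-treated cultures, against 8.52, 8.60 and 7.62 in untreated ones. The treated and untreated levels of Mcm3 lay within 0.06 of each other with C26CM until 8 h, and at 24 h it fell by 0.43 ± 0.083 (adjusted p = 0.0376). The other helicase subunits were lower at 24 h by 0.1 to 0.4 with LIF and by 0.22 to 0.43 with C26CM, with adjusted p from 0.0973 for Mcm6 to 0.402 for Mcm4. Mcm10, which acts when the helicase is activated, was lower by 0.4 and 0.41. The loaders Cdc6 and Cdt1 were lower by 0.3 and 0.2 with LIF, and by 0.16 and 0.26 with C26CM.

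Of the 4 nucleotide supply genes, 3 were lower at 24 h with LIF and all 4 with C26CM. Tyms, which makes thymidylate, stood at 7.8, 8.1 and 5.8 in LIF-treated cultures, against 7.3, 8.0 and 6.2 in untreated ones. With C26CM it stood at 8.85, 8.86 and 7.27 in treated cultures and at 8.80, 8.83 and 7.94 in untreated ones. It was the higher of the pair at 4 h with LIF and the lower at 24 h with both agents, and fell by 0.535 ± 0.108 at 24 h (adjusted p = 0.0456). The table also lists the pseudogene Tyms-ps, and probes shared between the copies could not be checked here. Rrm1, the large subunit of ribonucleotide reductase, was at 8.7 in LIF-treated and 8.9 in untreated cultures at 24 h, and at 9.85 in C26CM-treated and 10.21 in untreated ones. It fell by 0.28 ± 0.058 (adjusted p = 0.0487).

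Rrm2, the small subunit of the same enzyme, did not follow Rrm1 with LIF. It stood at 10.0, 10.3 and 8.8 in LIF-treated cultures, against 9.8, 10.1 and 8.6 in untreated ones, so it was higher by 0.2 at each time. With C26CM it was higher by 0.06, equal at 8 h and lower by 0.25 at 24 h. The thymidine kinase gene Tk1 had the largest early change of the 33. It stood at 7.9, 8.3 and 6.2 in LIF-treated cultures, against 7.2, 8.1 and 6.5 in untreated ones, and at 7.52, 7.59 and 6.54 in C26CM-treated cultures, against 7.68, 7.66 and 7.07 in untreated ones. Tk1 was higher by 0.7 at 4 h with LIF and lower by 0.3 and 0.53 at 24 h with LIF and C26CM, and did not pass the 24 h test (adjusted p = 0.362).

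**Figure D2:**
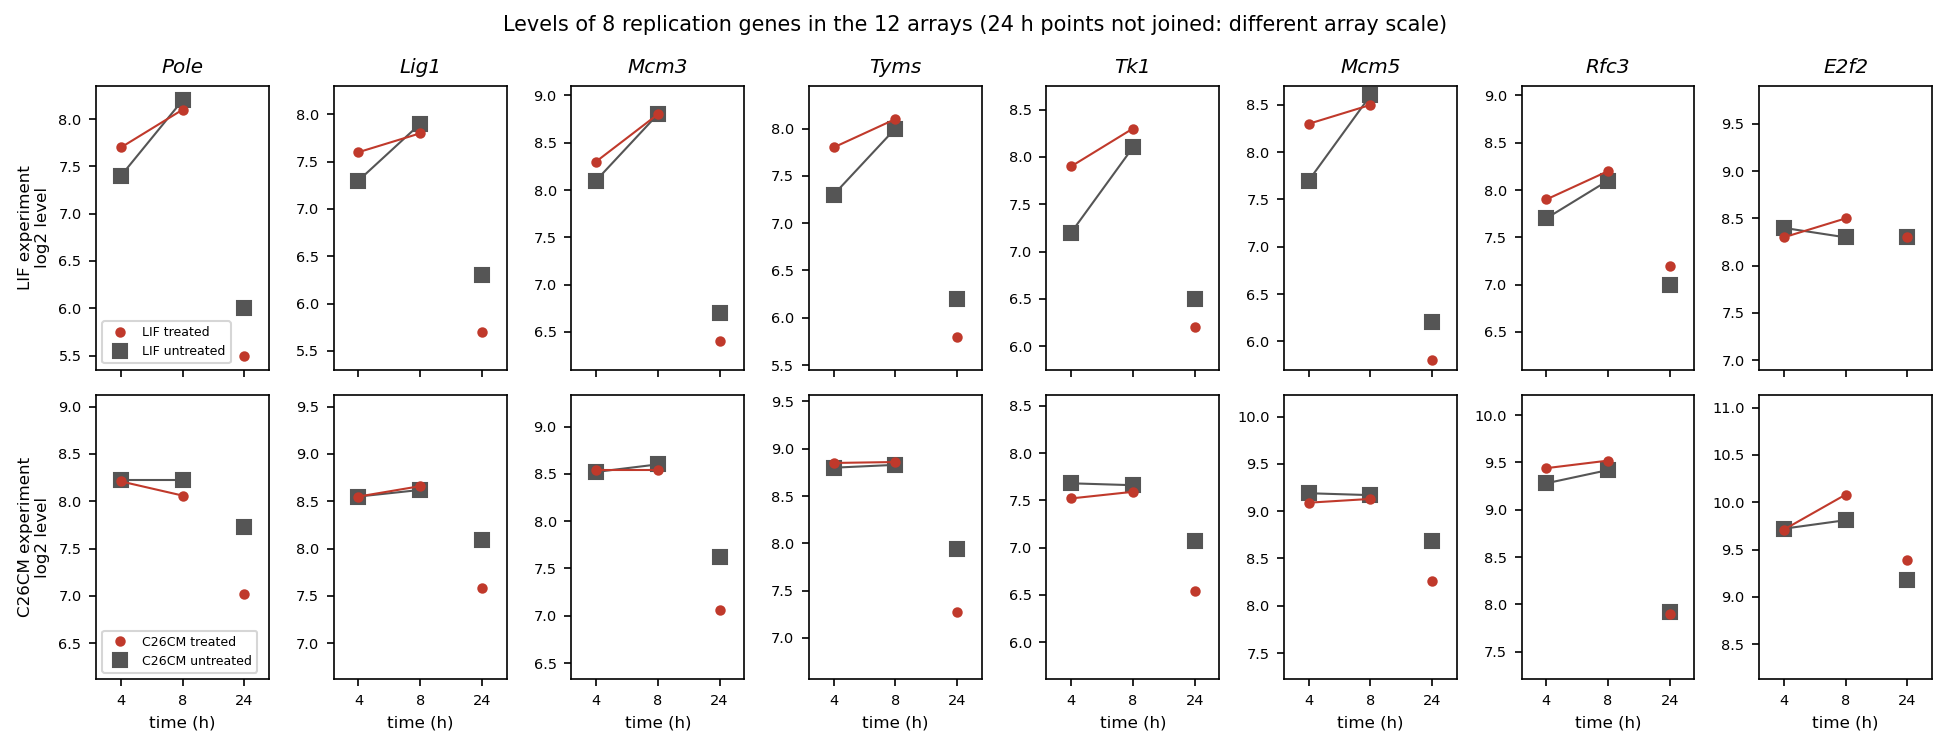
Log2 level of 8 replication genes (columns) in the LIF experiment (upper row) and the C26CM experiment (lower row) against time in hours, treated arrays as red circles and untreated arrays as grey squares, 1 array per point. At 24 h the red point lies below the grey one in both rows for Pole, Lig1, Mcm3, Tyms, Tk1 and Mcm5, and not in both for Rfc3 and E2f2.

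Among the genes that control entry into S phase, E2f1, an activating E2F factor, was lower at 24 h by 0.4 with LIF and 0.24 with C26CM (limma over both agents, adjusted p = 0.0888). The cyclin E genes were lower with LIF by 0.1 for Ccne1 and 0.4 for Ccne2, and with C26CM by 0.09 and 0.36, and neither passed (adjusted p = 0.691 and 0.0624). E2f2, another activating factor, was the one gene of the 33 that was lower at 24 h with neither agent. Its levels were 8.3, 8.5 and 8.3 in LIF-treated cultures, against 8.4, 8.3 and 8.3 in untreated ones. With C26CM they were 9.71, 10.08 and 9.39 in treated cultures, against 9.72, 9.81 and 9.18 in untreated ones. E2f2 was thus higher by 0.27 at 8 h and 0.21 at 24 h with C26CM, and it did not pass at 24 h (adjusted p = 0.631).

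E2f2 also stood apart over the 6 pairs of arrays. The Pearson correlation of a gene's 6 changes with the median change of the other genes was -0.43 for E2f2, from 0.52 to 0.54 for Rfc3, Brca1 and Rrm2, 0.77 for Gins1, and from 0.78 to 1.00 for the other 28, as a description over 6 points. Brca1, which acts in repair at stalled forks, was at 5.0 in LIF-treated and 4.8 in untreated cultures at 24 h, and at 5.55 in C26CM-treated and 6.03 in untreated ones. It was thus higher with LIF by 0.2 and lower with C26CM by 0.48, its untreated LIF level being close to the background limit of 4.7. Gins1, a GINS subunit, was higher by 0.1 with LIF and lower by 0.54 with C26CM, its untreated LIF level being in the background range, while its partner Gins2 was lower by 0.1 and 0.38. Cdc45 was lower by 0.3 and 0.13. The difference between the agents in the change at 24 h minus the mean of 4 and 8 h was not called for any of the 33 genes (smallest adjusted p = 0.516) or for any gene of the table (0.0%). In chromatin assembly, Uhrf1, which maintains DNA methylation, was lower by 0.3 and 0.32, and Chaf1b, a histone chaperone subunit, by 0.4 and 0.14.

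**Figure D3:**
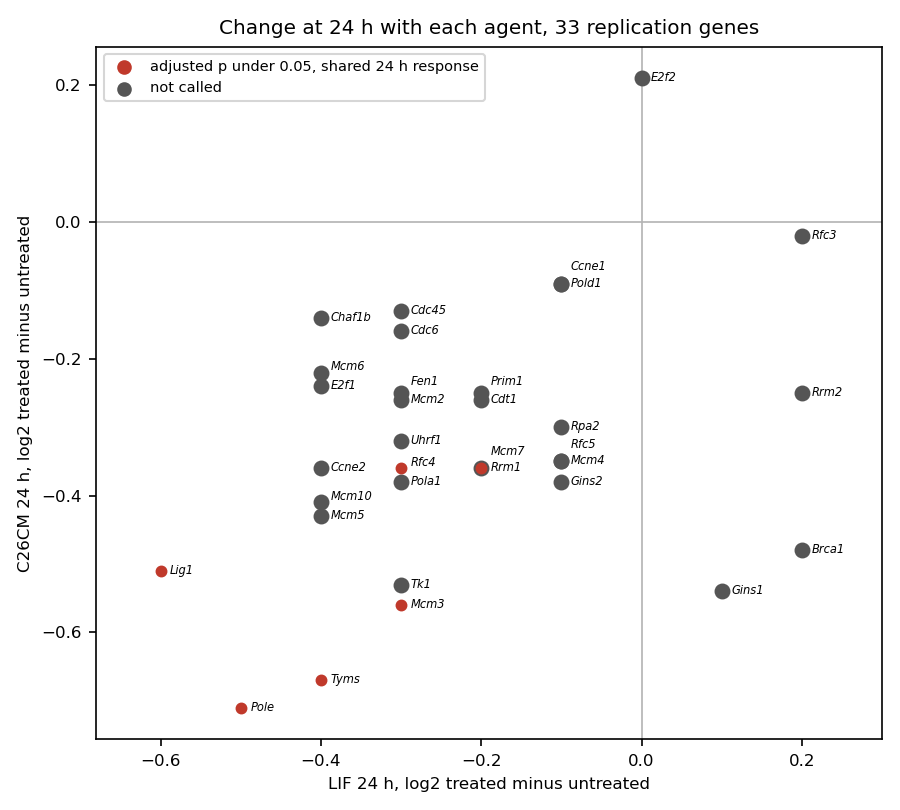
Log2 change at 24 h, treated minus untreated, with LIF (x axis, in steps of 0.1) and with C26CM (y axis) for 33 replication genes. The 6 red points are the genes called at 24 h over both agents, and 28 of the 33 points lie below 0 on both axes. Mcm7 and Rrm1 share a position, as do Mcm4 and Rfc5, and Ccne1 and Pold1.

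At 4 h with LIF the sign was the other way. Of the 33 genes, 31 were above 0 (35.9% of all genes were), and the median change was 0.30, from -0.1 to 0.7. Mcm5 and Tk1 were at least 1.5-fold higher, where 0.316% of all genes were. At 8 h with LIF the median was 0.0, with 9 genes above 0 and 12 below 0 (31.6% and 33.2% of all genes). The sequence of higher at 4 h and lower at 24 h with LIF was seen in 27 of the 33 genes, against 16.9% of all genes. With C26CM there was no such early difference. Its median was 0.01 at 4 h, with 17 genes above 0 and 14 below 0 (46.0% and 49.6% of all genes), and -0.03 at 8 h, with 11 above 0 and 20 below 0 (48.5% and 47.9%).

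The LIF change at 4 h rests on 1 untreated array. Between the untreated LIF arrays of 8 h and 4 h, 32 of the 33 genes were higher at 8 h (37.1% of all genes were), by a median of 0.60, and 24 were at least 1.5-fold higher (0.75% of all genes). On the LIF-treated arrays all 33 genes were also higher at 8 h than at 4 h, by a median of 0.3, where the median of all genes was 0.0. In the C26CM experiment the comparison of untreated arrays gave a median of 0.06, with 22 genes above 0 (49.4% of all genes). Mcm5 shows the pattern, with 8.3 in LIF-treated cultures at 4 h against 7.7 in untreated ones, and 8.5 in LIF-treated cultures at 8 h against 8.6 in untreated ones. For 31 of the 33 genes the LIF-treated array at 4 h lay between the untreated arrays of 4 and 8 h. This count was not taken over all genes and follows in part from those above. The LIF-treated 4 h array was also set against the untreated 8 h array, a comparison added after the data were seen. It was lower there by a median of 0.3, where the median of all genes was 0.0. With 1 array per time, an effect of LIF at 4 h and a low untreated array at 4 h cannot be told apart.

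**Figure D4:**
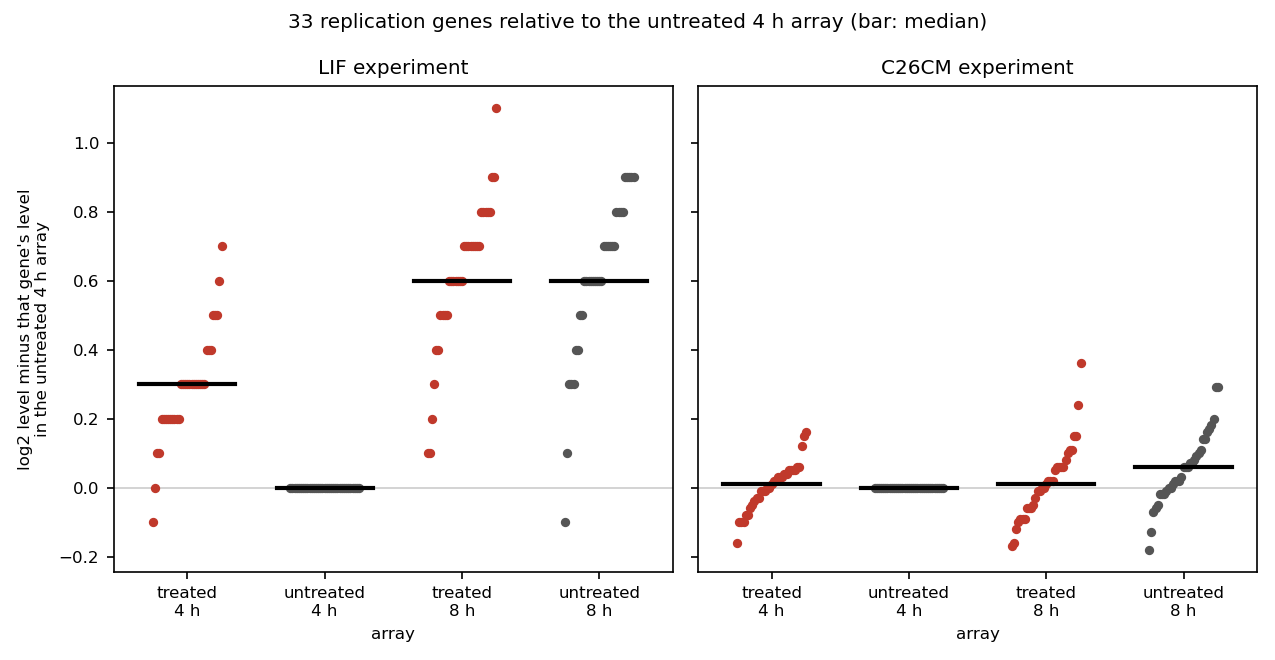
Log2 level of each of 33 replication genes minus its own level in the untreated 4 h array (y axis), on the treated and untreated arrays of 4 and 8 h (x axis), in the LIF experiment (left) and the C26CM experiment (right), sorted within an array, with the median as a bar. In the LIF experiment the medians are 0.3, 0, 0.6 and 0.6, and in the C26CM experiment they stay within 0.06 of 0.

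The genes were lower at 24 h than at 4 h also on the untreated arrays. After taking off the median of all genes, the untreated LIF array at 24 h was below that at 4 h for 31 of the 33 genes (43.8% of all genes), with a median of -0.50. In the untreated C26CM cultures this was so for 26 (49.2% of all genes), with a median of -0.21. In treated cultures the same medians were -1.10 with LIF and -0.54 with C26CM. The LIF value for untreated cultures rests on the untreated 4 h array, on which these genes lay lower than on that of 8 h. Set against the 8 h arrays, a comparison added after the data were seen, the medians were -1.5 in LIF-treated cultures and -1.1 in untreated ones, and -0.53 in C26CM-treated cultures and -0.30 in untreated ones. Relative to all genes, the replication genes were thus lower also on the untreated 24 h arrays than on those of 4 or 8 h. The 24 h changes are read against these arrays. With 1 array per time and another scale at 24 h, time in culture and a difference between arrays cannot be told apart.

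Tests that take the 3 times as repeats called none of the 33 genes. Their p depends on how even a change was over the times, which are not replicates. For the response to LIF no gene of the table was called (0.0%; 1445 at an unadjusted p under 0.05), and the smallest adjusted p among the 33 was 0.431. For the response to C26CM 46 genes were called (0.217%) and the smallest among the 33 was 0.546. The difference between the responses called no gene (smallest 0.967 among the 33). The change at 24 h minus the mean of 4 and 8 h had a median of -0.40 with LIF and -0.28 with C26CM over the 33 genes, against 0.0 and -0.005 over all genes. The LIF value includes the 4 h change, which rests on the untreated 4 h array described above. The change at 24 h minus that at 8 h alone, a value with no test, had a median of -0.30 with LIF and -0.26 with C26CM. At an unadjusted p under 0.05, 12 of the 33 were lower in each of the tests of 24 h against the mean of 4 and 8 h, where 5.05% and 6.27% of all genes were, and no gene of the table passed after adjustment (0.0% in each; smallest adjusted p among the 33, 0.528 and 0.413).

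Other genes of the pathway were taken from lists, of which the 4 genes with the largest mean absolute change are named where they passed. Of 28 further replisome and licensing genes, 2 fell at 24 h in the test over both agents and none rose, where 0.807% of all genes fell. They were Dtl, which targets Cdt1 for destruction and fell by 0.395 (adjusted p = 0.0330), and Ticrr, which helps origins fire and fell by 0.455 (adjusted p = 0.0398, named after its value was seen). The list median was -0.16. With LIF it was -0.1, with 15 genes below 0 (42.9% of all genes). With C26CM it was -0.265, with 26 below 0 (48.6% of all genes). None of 16 further genes of nucleotide supply and S phase chromatin passed (median -0.14, by agent -0.1 with LIF and -0.175 with C26CM). Of 16 genes of S phase repair and checkpoints 1 fell (median -0.20, by agent -0.15 with LIF and -0.305 with C26CM). This was Fancd2, a Fanconi anaemia protein gene, which fell by 0.61 (adjusted p = 0.0241). In LIF-treated cultures at 24 h Fancd2 was in the background range.

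Of 25 regulators of S phase entry, 3 fell and none rose, where 0.807% of all genes fell. The list median was -0.07. With LIF it was 0.0, with 10 genes below 0 (42.9% of all genes). With C26CM it was -0.08, with 18 below 0 (48.6% of all genes). Ccnd1, the cyclin D1 gene that acts in G1, had the largest change. It stood at 8.8, 8.7 and 6.3 in LIF-treated cultures at 4, 8 and 24 h, against 8.8, 8.9 and 7.0 in untreated ones. With C26CM it stood at 9.90, 9.55 and 8.37 in treated cultures, against 9.91, 9.88 and 9.38 in untreated ones. Both agents gave no difference beyond 0.01 at 4 h and a lower treated array from 8 h on, and at 24 h Ccnd1 fell by 0.855 ± 0.078 (limma, adjusted p = 0.00143). Ccna2, the cyclin of S phase and mitosis, fell by 0.425 (adjusted p = 0.00646) and E2f7, a repressing E2F factor, by 0.535 (adjusted p = 0.0311). Of 27 mitosis genes, which follow replication in the cycle, 16 fell and none rose, against the same 0.807% of all genes. Their median was -0.495. All 27 were lower at 24 h with both agents, with medians of -0.30 with LIF and -0.66 with C26CM. Examples are the kinase gene Plk1, which fell by 0.585 (adjusted p = 0.0203), the spindle checkpoint kinase gene Bub1, which fell by 0.55 (adjusted p = 0.0254), and Ccnb2, a mitotic cyclin, which fell by 0.495 (adjusted p = 0.00620).

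**Figure D5:**
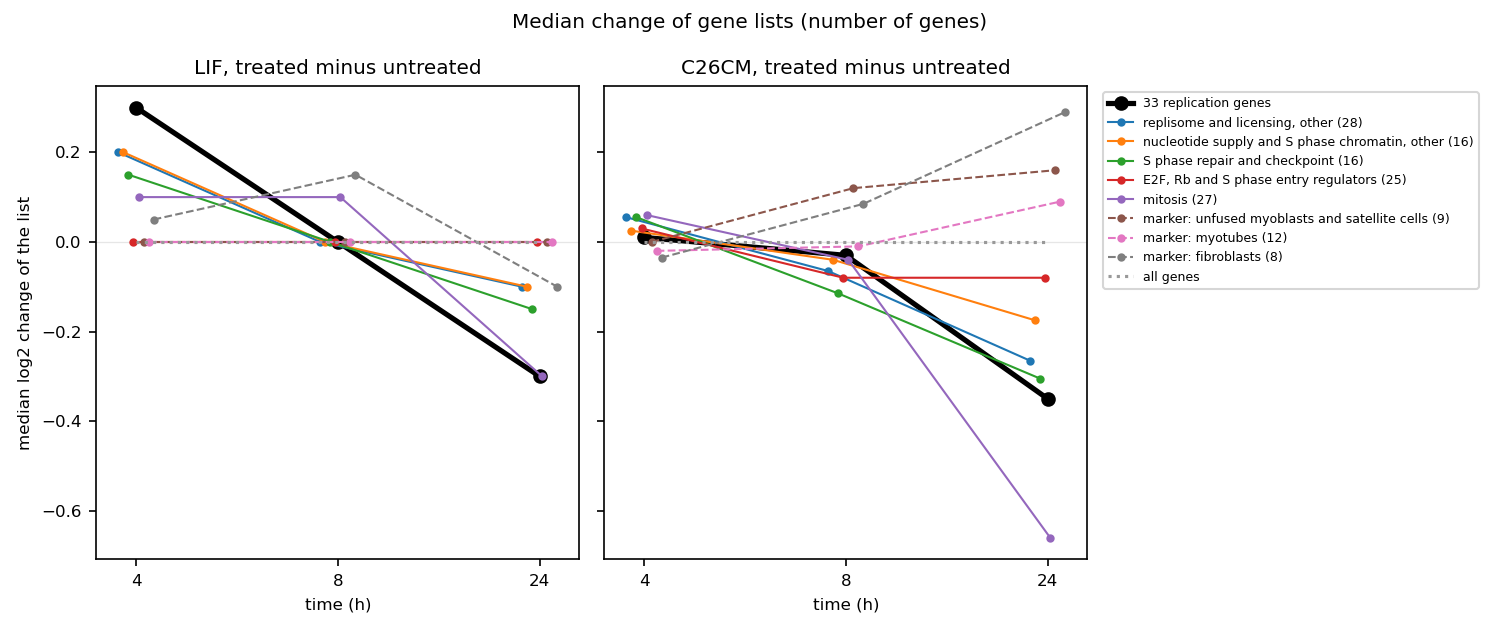
Median log2 change, treated minus untreated, of the 33 replication genes (black), other cell cycle lists (solid), marker lists (dashed) and all genes (dotted) at 4, 8 and 24 h with LIF (left) and C26CM (right); points are shifted sideways so that equal values can be seen. At 24 h the black line is at -0.30 and -0.35, the mitosis list at -0.30 and -0.66, and the myotube list at 0.0 and 0.09.

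Markers of cell types were read beside these values. Where a summed log2 level is given as a range over the times, its lower end is the 24 h array, which has another scale. The lower ends thus set treated against untreated cultures at 24 h. All 12 myotube markers were above background on every array, and their summed log2 level was 125.6 to 130.3 in LIF-treated cultures and 125.3 to 130.9 in untreated ones, and 135.36 to 137.69 in C26CM-treated cultures and 134.74 to 137.96 in untreated ones. Of 9 markers of unfused myoblasts and satellite cells, 8 were above background on every array and Calcr on none. The sum was 72.7 to 77.3 in LIF-treated cultures and 72.7 to 77.0 in untreated ones, and 83.23 to 86.80 in C26CM-treated cultures and 81.92 to 85.78 in untreated ones. Their median change at 24 h was 0.0 with LIF (4 above 0, 4 below) and 0.16 with C26CM (6 above 0, 3 below). In the limma test at 24 h over both agents Spry1 alone of the 9 fell (by 0.33, adjusted p = 0.0342). In the response to C26CM over the times 1 of the 9 was called higher and none lower, where 0.217% of all genes were called. These markers were therefore not lower as a list in treated cultures at 24 h. The number of unfused cells was not tested.

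Of 8 fibroblast markers, 4 or 5 were above background per array, and Dpt, Lum and Tcf21 on none. Their summed log2 level at 24 h was 51.2 in LIF-treated and 50.6 in untreated cultures, and 56.17 in C26CM-treated and 53.25 in untreated cultures. Over all times it spanned 51.2 to 54.3 in LIF-treated and 50.6 to 53.5 in untreated cultures, and 56.17 to 57.26 in C26CM-treated and 53.25 to 56.67 in untreated ones. The median change of the 8 at 24 h was -0.1 with LIF (3 above 0, 4 below) and 0.29 with C26CM (7 above 0, 1 below). Col1a1, a collagen gene, was lower at 24 h with both agents, by 0.2 and 0.1. Pdgfra, above background on every array, was higher by 0.5 with LIF and 0.41 with C26CM. Thy1 was lower by 0.4 with LIF and higher by 0.22 with C26CM. Neither Pdgfra nor Thy1 passed the 24 h test over both agents. Col3a1, a fibrillar collagen gene, rose at 24 h by 0.55 (adjusted p = 0.00172) and Ly6a, a surface marker of mesenchymal progenitors, by 0.83 (adjusted p = 0.000745). The part of fibroblasts in the lower levels of replication genes was not tested. The colon carcinoma markers Epcam, Krt20, Vil1 and Cldn7 and the leukocyte markers Ptprc, Csf1r, Adgre1, Itgam and Lyz2 were in the background range on all 12 arrays. Per array, 5 to 7 of the 11 carcinoma markers and 3 or 4 of the 10 leukocyte markers were above background. The carcinoma markers summed to 51.5 to 55.6 in LIF-treated and 51.8 to 55.8 in untreated cultures, and to 54.86 to 62.48 in C26CM-treated and 55.17 to 62.37 in untreated ones. The leukocyte markers summed to 40.6 to 46.5 in LIF-treated and 41.6 to 46.0 in untreated cultures, and to 45.59 to 50.97 in C26CM-treated and 45.71 to 50.71 in untreated ones.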

How the data were processed

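RNA of 3 pooled wells was hybridised to each of 12 Affymetrix mouse gene arrays, per the series' design text. The authors deposited log2 expression values, 1 for each Entrez gene, which the submitters' processing notes say came from RMA. No RMA version, probe set definition or genome build is given in the sources used here. Also deposited by the authors were signed fold changes (a score with no values between -1 and 1), per the file headers. For 100% of genes these matched the log2 differences to within rounding. The fold change tables repeat levels in 12 per-sample columns, left out here. Samples were grouped by title. Identifiers were named through RefSeq (GRCm38.p6), with 20819 of 21187 matched.

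Values were used without filter or further normalization. In R 4.3.3, limma 3.58.1 (eBayes with a trend in the variance) was fitted to all 21187 genes with the array pair as a block, with Benjamini-Hochberg adjustment and a threshold of 0.05. One fit had a treatment effect per agent (4 residual degrees of freedom), one added its change at 24 h (2), and one, added after the data were seen, had an effect per time shared by the agents (3). The fits were tested on simulated data. Alternatives were eBayes without a trend or robust, leaving out the dimmest 50% of genes, quantile normalization, centring, rounding of C26CM values, other fold thresholds and leaving out a time. The members and lists were chosen with earlier results of these data known. All members could be named, and up to 4 genes of each other list, those with the highest mean absolute change over the 6 pairs. Promoters shown were the 4 genes with a match and the largest and the 2 with the smallest absolute median change over the 6 pairs, plus Lig1 and Mcm3. Precision is limited by 1 array per group.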

Additional observations from a re-analysis of the deposited data

How the results depend on the processing

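The 24 h test over both agents depended on the settings, all tried after the data were seen. Of the 33 genes, 6 fell with robust eBayes (344 of all 21187 genes called) or centring (333), 5 after quantile normalization (without Rfc4, 300 called) and 7 without the dimmest 50% of genes (Ccne2 added, 364 of 10592 called), where 315 were called at the main setting. The count was 0 without a variance trend (27 genes called in all), 0 with C26CM values rounded to 1 decimal (0 genes called in all, 2523 at an unadjusted p under 0.05), 2 without 4 h and 2 without 8 h (Lig1 and Pole both times). The highest adjusted p over the settings was 0.187 for Pole and 0.207 for Lig1. Directions of the called genes did not turn. Only quantile normalization could have turned them. Rounding moved the 24 h estimates too little for this (Pole from -0.605 to -0.6, Mcm3 from -0.43 to -0.4). The other settings leave these estimates as they are. Centring is among them, as the treated and untreated 24 h arrays of each agent had equal medians. The planned tests called 0 of the 33 genes in every setting. Over all genes, the response to C26CM called 46, against 25 with robust eBayes, 25 without the dimmest 50%, 1 without 4 h and 0 without a trend, without 8 h, without 24 h, with rounding or from its 6 arrays alone. The response to LIF called 0, against 12 with robust eBayes and 12 after quantile normalization, and its late change 0 against 8 after quantile normalization. For the shared test at 8 h, 14 genes became 6 after quantile normalization, 0 without a trend and 0 with rounding. At 24 h, the 315 genes became 141 without 4 h and 186 without 8 h. The cause was not tested. The late tests without a time could not be fitted, as no residual degrees of freedom remain.

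The median LIF change at 4 h turned to -0.3 against the untreated 8 h array. The genes at least 1.5-fold apart (2, 1 and 2 for LIF 4 h higher, LIF 24 h lower and C26CM 24 h lower) became 8, 9 and 17 at a log2 threshold of 0.32, where 1.92%, 2.90% and 5.39% of all genes lay, and 0 at 2-fold in each, where 9, 8 and 33 of all genes lay. After quantile normalization the median C26CM change at 24 h was -0.26. The untreated LIF medians relative to all genes were then 0.65 for 8 h minus 4 h and -0.40 for 24 h minus 4 h. With the 8 h arrays in place of the 4 h arrays, the untreated 24 h medians were -1.1 in the LIF and -0.3 in the C26CM experiment.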
